A study of Mus musculus with 9 samples.

Results

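Laminins, nidogens, perlecan and peroxidasin are among the components of the basement membrane that are not collagen. The 10 genes described here are Lama2, Lama4, Lama5, Lamb1, Lamb2, Lamc1, Nid1, Nid2, Hspg2 and Pxdn. They were chosen by their function, with earlier results of these data known. All of them were found among the 24062 genes of the count table. All 10 passed the filter on low counts. RNA had been sequenced from mouse embryonic fibroblasts of the C57BL/6 strain, all of them gamma-irradiated to make them senescent and infected with a hairpin-carrying lentivirus at day 10 after irradiation. The control group received a scrambled hairpin (shScr), and the other groups received shRela-1 or shRela-2, independent hairpins against Rela, the gene for the NF-kB subunit p65. There were 3 samples in each of the 3 groups, which all shared the irradiation and the infection. An unirradiated group is not analysed here, so the values compare knockdown with control among senescent cells.

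A basement membrane is a thin sheet of matrix on which epithelia, endothelia, muscle and nerve sheaths rest. Laminins are trimers of an alpha, a beta and a gamma chain that assemble into a network at the cell surface and bind integrins and dystroglycan. Nidogens tie that network to the one formed by type IV collagen, and perlecan, a large proteoglycan with heparan sulfate chains, binds both and holds growth factors. Peroxidasin is a secreted heme peroxidase that makes the sulfilimine bonds that crosslink type IV collagen. Fibroblasts secrete many of these proteins into the interstitial matrix and toward neighbouring sheets.

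Library totals ran from 49774667 to 67963506 counts. Rela, the target of both hairpins, stood at 83.2 to 86.8 CPM (counts scaled to the library total) in shScr, 13.2 to 14.1 CPM in shRela-1 and 13.4 to 14.8 CPM in shRela-2. It had a log2 fold change of -2.64 ± 0.050 (± SE, here and below) under shRela-1, and for shRela-2 it was -2.62 ± 0.050. Markers of fibroblasts summed to between 34200 and 39010 CPM over all samples, and all 9 had group means of at least 1 CPM. Endothelial and epithelial cells, which also make basement membranes, had markers at low levels. The 8 endothelial markers summed to at most 6.49 CPM in any sample and the 7 epithelial markers to at most 21.7 CPM. Of these, 6 endothelial and 3 epithelial markers had means under 1 CPM over all samples, among them Pecam1, Cdh5, Epcam and Cdh1. Others were above it, such as Kdr, with group means of 2.00 to 2.34 CPM, and Krt18, with 5.03 to 11.0 CPM. Some marker sums moved with the groups. The 7 markers of smooth muscle and pericytes, mostly Acta2, summed to 7521 to 8796 CPM in shScr, 10030 to 12000 CPM in shRela-1 and 6837 to 8001 CPM in shRela-2. Of them, Acta2 and Myh11 were higher in all shRela-1 samples than in any control. Mcam was lower, with a mean of 98.2 CPM against 211 CPM in shScr, and Cnn1, Cspg4, Rgs5 and Des overlapped. The 7 epithelial markers, mostly the keratin gene Krt18, spanned 8.68 to 13.4 CPM in shScr, 13.1 to 21.7 CPM in shRela-1 and 8.40 to 11.1 CPM in shRela-2. The 9 fibroblast markers spanned 34290 to 36900 CPM in shScr, 38790 to 39010 CPM in shRela-1 and 34200 to 34840 CPM in shRela-2. Among them Pdgfrb was lower in all shRela-1 samples than in any control, Pdgfra and Dcn overlapped, and the others were higher. The 6 neural markers, mostly Ncam1 and Tubb3, spanned 271 to 275 CPM in shScr, 229 to 241 CPM in shRela-1 and 295 to 309 CPM in shRela-2. The part of these shifts in the results below was not tested, and in bulk RNA fewer cells of a type and less RNA per cell cannot be told apart.

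The hairpins did not move all of these genes alike. Pxdn fell to about a 0.358-fold level with shRela-1 and rose 1.44-fold with shRela-2. Lamc1 and Lama2 rose with shRela-1, Lama4 and Lamb1 fell with shRela-2, and Nid1 rose with shRela-2. Of the 10 genes, 2 rose and 1 fell with shRela-1, beside 12.3% of all 15369 tested genes that rose and 12.4% that fell (24.7% in either direction, edgeR's quasi-likelihood test, adjusted p under 0.05). With shRela-2, 2 rose and 2 fell, beside 15.4% of all genes in each direction (30.9% together). Between the hairpins 6 of the 10 differed, 2 higher and 4 lower with shRela-2, beside 39.9% of all genes (20.0% higher and 19.9% lower). In this fit, which takes no account of the replicate number, the shares against shScr were close to the background. The median log2 fold change of the 10 was 0.09 for shRela-1, where that of all tested genes was 0.003. For shRela-2 it was 0.03, where that of all tested genes was -0.002. Both comparisons use the same 3 control samples. Samples with the same replicate number deviated together, and with the replicate number as a block 7 of the 10 changed with shRela-1 (6 rose and 1 fell, beside 20.4% of all genes that rose, 18.9% that fell and 39.3% together). With shRela-2 the block gave 9 (5 rose and 4 fell, beside 22.2% in each direction and 44.4% together). Both of these blocked counts are a larger share than that of all genes, and the excess was not tested. Between hairpins it gave 8 (2 higher and 6 lower with shRela-2, beside 25.8% higher, 26.1% lower and 51.9% together). Without shScr replicate 3, the unblocked fit called 2 of the 10 with shRela-2.

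**Figure D1:**
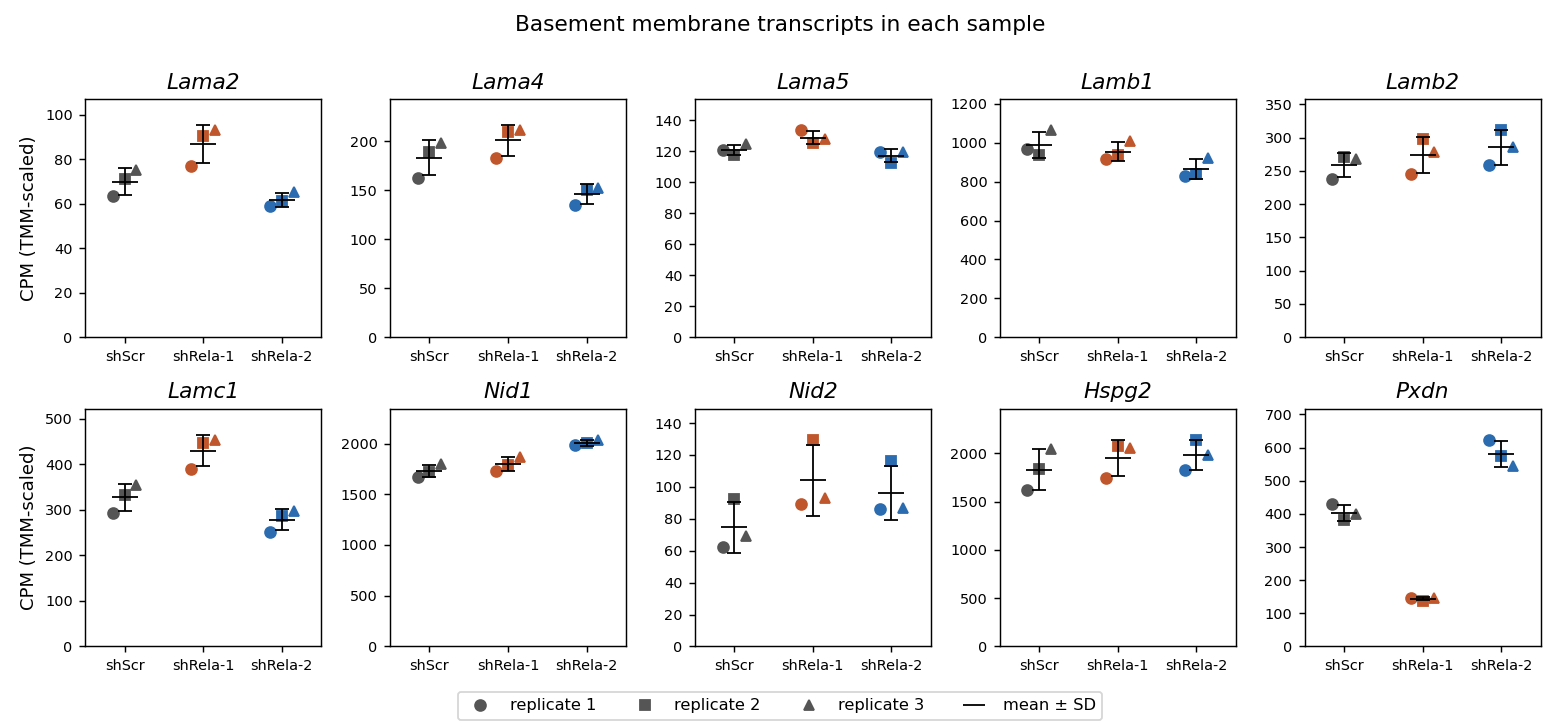
Level of each of the 10 genes in CPM (vertical axis, from 0) in the 3 shScr, 3 shRela-1 and 3 shRela-2 samples; symbols mark the replicate number and bars the mean ± SD. Pxdn stands at 139 to 148 CPM in shRela-1, under all shScr samples, and at 545 to 624 CPM in shRela-2, above them.

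**Figure D2:**
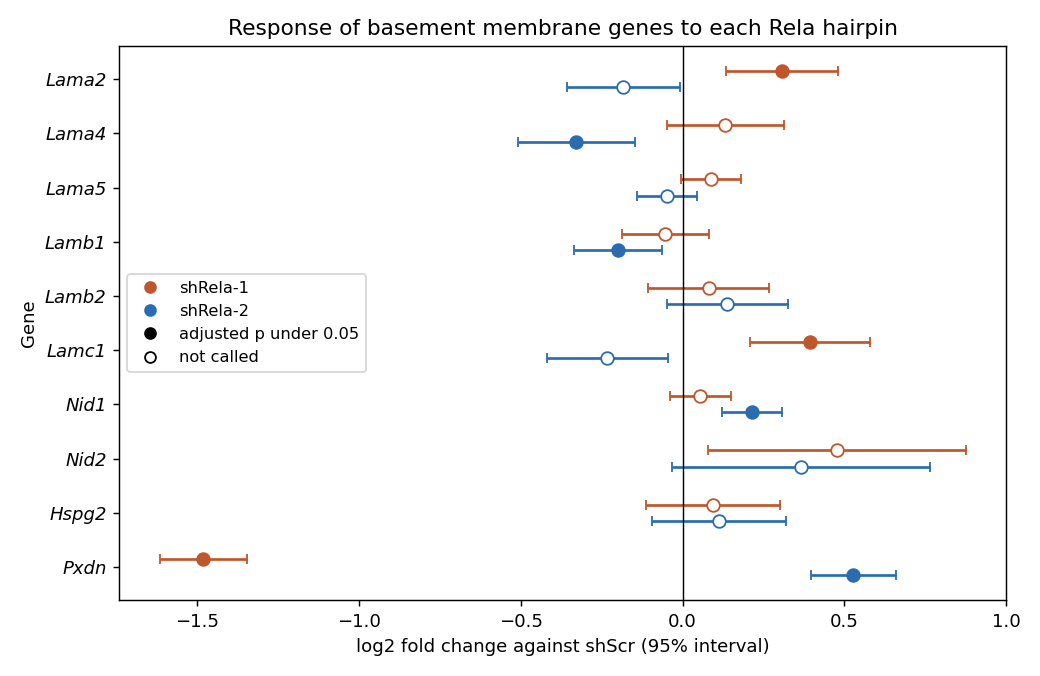
Log2 fold change of each gene against shScr (horizontal axis) with its 95% interval for shRela-1 and shRela-2; filled points have an adjusted p under 0.05. Pxdn lies at -1.48 and 0.53, and Lamc1 and Lama2 lie to the right of 0 with shRela-1 and to the left of it with shRela-2.

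Levels were compared between genes per kilobase of exon, in CPM per kb. In shScr, Nid1 was the highest at 284 ± 10.1 CPM per kb (mean ± SD, n = 3, here and below). Lamb1 followed at 169 ± 11.2 and Hspg2 at 129 ± 14.8 CPM per kb. These 3 genes stood apart from the rest, each group of 3 samples clear of the next. Pxdn (48.2 ± 2.96 CPM per kb), Lamb2 (46.0 ± 3.18) and Lamc1 (42.9 ± 4.0) came next and did not differ beyond their spread. Lama4 stood at 30.3 ± 3.02 CPM per kb, Nid2 at 15.3 ± 3.29, Lama5 at 10.6 ± 0.288 and Lama2 at 7.13 ± 0.605. Among these genes Lama4 was therefore the highest alpha chain, at 63.0 ± 1.57% of the summed level per kb of Lama2, Lama4 and Lama5. Lamb1 was the higher beta chain, at 78.6 ± 1.45% of the sum of Lamb1 and Lamb2. With shRela-2 the Lama4 share was 59.3 ± 1.68% and the Lamb1 share 74.4 ± 1.92%, and with shRela-1 they were 62.2 ± 1.33% and 77.0 ± 1.68%.

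Among the laminin alpha chains, Lama2 encodes the chain of muscle and nerve laminin whose loss causes muscular dystrophy in the dy mouse. It lies on chromosome 10, at 26980036 to 27619758 on the minus strand (mm10, as all positions here), and 154 bases of its exons overlap those of Gm48084 on the other strand. It stood at 63.5, 71.1 and 75.2 CPM in shScr replicates 1 to 3, at 76.9, 90.2 and 92.9 CPM with shRela-1 and at 58.8, 61.1 and 65.0 CPM with shRela-2. Every shRela-1 sample was above every control, while the shRela-2 range overlapped that of the controls. Lama2 rose by 0.31 ± 0.078 with shRela-1 (edgeR, adjusted p = 0.0155). That call was lost without shRela-1 replicate 2 (adjusted p = 0.0518, edgeR) or replicate 3 (0.0625). Its value with shRela-2 was -0.18 ± 0.078 (edgeR, adjusted p = 0.107), and with the replicate block it fell (-0.18, adjusted p = 4.54e-04), against 0.0395 to 0.326 over the 14 other alternatives. It also passed without shScr replicate 1 (0.0395) or shRela-1 replicate 1 (0.0423). Between hairpins Lama2 differed by -0.49 ± 0.078 (shRela-2 minus shRela-1, edgeR, adjusted p = 5.58e-04).

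Lama4, the alpha chain of vessel and mesenchymal laminins (chromosome 10, 38965515 to 39110188, plus strand), had 163, 189 and 198 CPM in shScr, 183, 209 and 211 CPM with shRela-1 and 135, 151 and 153 CPM with shRela-2. All shRela-2 samples lay under all controls, and the shRela-1 and control ranges overlapped. It fell by 0.33 ± 0.082 with shRela-2 (edgeR, adjusted p = 0.0113), a call lost without shScr replicate 3 (0.0518). With shRela-1 its value was 0.13 ± 0.082 (edgeR, adjusted p = 0.282), or a rise of the same size with the block (adjusted p = 8.95e-04, against 0.114 to 0.668 over the 14 others). The hairpins differed by -0.46 ± 0.082 (edgeR, adjusted p = 0.00113). Lama5, a chain of epithelial and vessel basement membranes (chromosome 2, 180176373 to 180225859, minus strand), had the smallest differences of the alpha chains. It ran from 118 to 124 CPM in shScr, from 125 to 133 CPM with shRela-1 and from 112 to 119.7 CPM with shRela-2. It passed the test against shScr with neither hairpin (0.09 ± 0.042 and -0.05 ± 0.042, edgeR, adjusted p = 0.157 and 0.437), although all shRela-1 samples were above all controls. It rose with shRela-1 under the block (adjusted p = 0.0296, against 0.139 to 0.37 over the others), and differed between hairpins by -0.14 ± 0.042 (edgeR, adjusted p = 0.0239). That call was lost when replicate 1 of shRela-1 (0.0755) or replicate 2 of shRela-2 (0.0941) was left out.

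Lamb1, the main beta chain here (chromosome 12, 31265234 to 31329644, plus strand), stood at 969, 937 and 1063 CPM in shScr, 917, 935 and 1010.0 CPM with shRela-1 and 828, 838 and 922 CPM with shRela-2. All shRela-2 samples were below all controls, while shRela-1 overlapped them. It fell by 0.20 ± 0.061 with shRela-2 (edgeR, adjusted p = 0.0312), and the call was lost without shScr replicate 3 (0.126), shRela-2 replicate 1 (0.102) or shRela-2 replicate 2 (0.102). With shRela-1 Lamb1 was at -0.05 ± 0.061, with a 95% interval from -0.19 to 0.08. The hairpins differed by -0.15 ± 0.061 (edgeR, adjusted p = 0.0834, or 2.10e-04 with the block and 0.0371 to 0.244 over the 14 others), and the lowest of these, which passed, left out shRela-2 replicate 3. Lamb2, the beta chain of the kidney filter and the neuromuscular junction (chromosome 9, 108479736 to 108490530, plus strand), had 239, 270.4 and 269 CPM in shScr, 246, 298 and 279 CPM with shRela-1 and 259, 311 and 286 CPM with shRela-2. The groups overlapped, and the values were 0.08 ± 0.084 and 0.14 ± 0.084 (edgeR, adjusted p = 0.546 and 0.253). With the block both passed as rises (0.0315 and 4.10e-04), against 0.206 to 0.931 and 0.111 to 0.605 over the others.

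Lamc1, the gamma chain of most laminins (chromosome 1, 153218922 to 153332786, minus strand), had the largest value of the 6 laminin genes with shRela-1 and between hairpins. It stood at 294, 333 and 354 CPM in shScr, 389.8, 446 and 453.5 CPM with shRela-1 and 252, 287 and 296 CPM with shRela-2. All shRela-1 samples lay above all controls, and the shRela-2 range reached into that of the controls. It rose by 0.39 ± 0.084 with shRela-1 (edgeR, adjusted p = 0.00656). With shRela-2 it was at -0.23 ± 0.084 (edgeR, adjusted p = 0.0597), and fell with the block (2.20e-07, against 0.0206 to 0.212 over the 14 others). It also passed by DESeq2 (adjusted p = 0.0222) and when replicate 1 of shScr (0.0206) or of shRela-1 (0.0369) was left out. Between hairpins it differed by -0.63 ± 0.085 (edgeR, adjusted p = 1.75e-04). The fibroblast and smooth muscle marker sums given above were also higher in every shRela-1 sample than in any control, while the epithelial sums overlapped. Within these lists Pdgfrb and Mcam went the other way with shRela-1. The part of these markers in the rises of Lamc1 and Lama2 was not tested. Since a laminin trimer takes 1 chain of each class, the members of each class were also summed per kb. The alpha sum held Lama2, Lama4 and Lama5, the beta sum Lamb1 and Lamb2, and gamma was Lamc1 alone. Laminin chains outside the 10 genes were left out, so these are not sums over whole classes. The ratio of gamma to summed beta level per kb was 0.185, 0.210 and 0.202 in shScr, 0.255, 0.275 and 0.268 in the shRela-1 samples, then 0.176, 0.189 and 0.186 in those of shRela-2. The summed alpha level was 48.1 ± 3.72 CPM per kb in shScr, 53.4 ± 3.16 in the shRela-1 samples and 40.7 ± 1.80 in those of shRela-2. The ratio of gamma to summed alpha level was 0.891 ± 0.015 in shScr, 1.06 ± 0.024 in the shRela-1 samples and 0.895 ± 0.038 in those of shRela-2. Both ratios were higher in all 3 shRela-1 samples than in any other sample, and these sums and ratios were not tested.

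**Figure D3:**
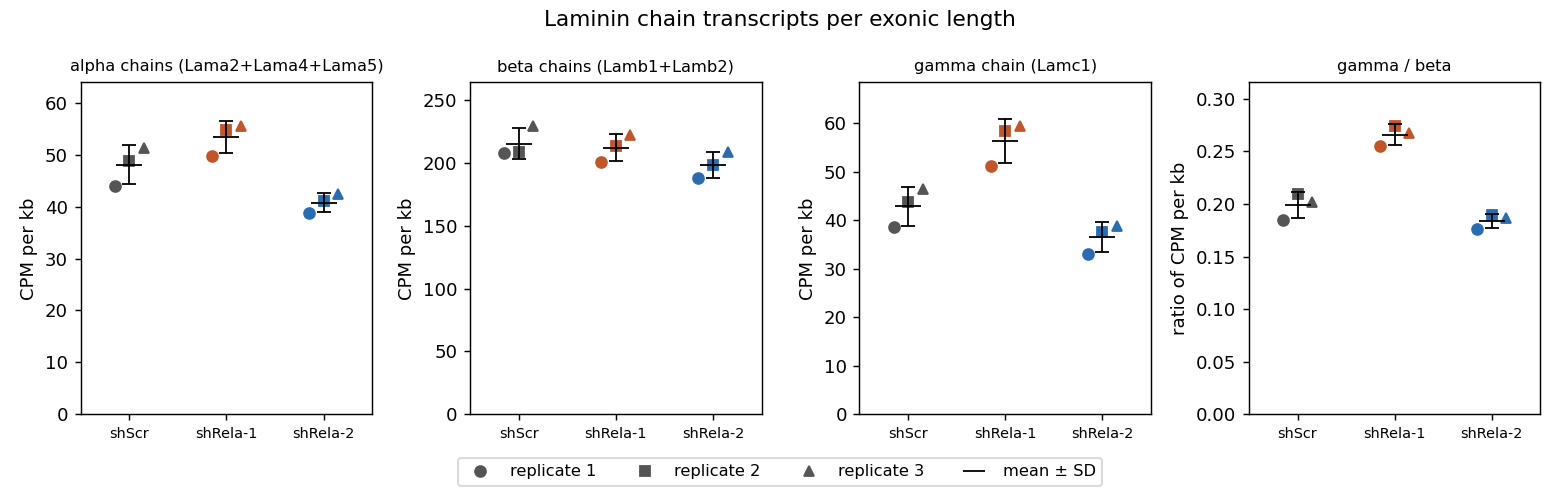
Summed level of the alpha (Lama2, Lama4, Lama5) and beta (Lamb1, Lamb2) laminin chains and level of the gamma chain Lamc1, in CPM per kb of exon. The ratio of gamma to beta level is also shown, in each sample (vertical axes from 0, bars mean ± SD). The gamma to beta ratio lies between 0.255 and 0.275 in shRela-1 and at or under 0.210 in the other groups.

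A list of 21 other basement membrane components was read beside the 10 genes, and 20 of them were matched and tested. With shRela-1 4 of them rose and 2 fell, and with shRela-2 1 rose and 4 fell (3 called without shScr replicate 3, and 11 with the block, of which 5 rose and 6 fell). Of all tested genes 24.7% were called with shRela-1 and 30.9% with shRela-2, or 44.4% with the block in the latter, and the list's median log2 fold changes were 0.03 and -0.02. Npnt, which encodes the integrin ligand nephronectin, fell with shRela-1 (-0.91 ± 0.094, edgeR, adjusted p = 7.02e-05) and was at -0.01 ± 0.092 with shRela-2. Fbln2, the matrix linker fibulin-2, fell with shRela-2 (-0.36 ± 0.057, edgeR, adjusted p = 8.52e-04) and was at -0.04 ± 0.057 with shRela-1.

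The nidogens differed from each other in level and in spread. Nid1 lies on chromosome 13 at 13437551 to 13512269 (plus strand, 143 exonic bases shared with Gm48682 on the other strand) and Nid2 on chromosome 14 at 19751265 to 19811787 (plus strand). Nid1 made up 94.9 ± 1.04% of the summed nidogen level per kb in shScr. It ran at 1672, 1720.3 and 1794 CPM in shScr, 1728, 1789.6 and 1871 CPM in the shRela-1 samples, and 1981, 2001 and 2037 CPM in those of shRela-2. All shRela-2 samples stood above all others. Nid1 rose by 0.21 ± 0.042 with shRela-2 (edgeR, adjusted p = 0.00312) and was at 0.05 ± 0.042 with shRela-1 (edgeR, adjusted p = 0.395), and the hairpins differed by 0.16 ± 0.042 (edgeR, adjusted p = 0.0116). Nid2, the second nidogen, had 62.1, 92.7 and 69.0 CPM in shScr, 89.3, 129.5 and 93.2 CPM with shRela-1 and 86.1, 116 and 86.7 CPM with shRela-2. Replicate 2 was the highest in every group, and the ranges overlapped, although each knockdown sample was above the control of the same number. Without the block the values were 0.48 ± 0.18 and 0.37 ± 0.18 (edgeR, adjusted p = 0.0794 and 0.156). With it Nid2 rose with both hairpins (0.48 and 0.37, adjusted p = 5.66e-10 and 2.62e-08, against 0.0255 to 0.273 and 0.0434 to 0.461 over the 14 others). The lowest of these, which passed, left out shScr replicate 2, with Nid2 at 0.67 and 0.55. The difference between hairpins was -0.11 ± 0.18 (edgeR, adjusted p = 0.664, or 0.0155 with the block and 0.302 to 0.912 over the others). The 7 macrophage markers summed to 573 CPM in shScr replicate 2, 514 CPM in shRela-1 replicate 2 and 516 CPM in shRela-2 replicate 2, and to 335 to 441 CPM in the other 6 samples, and their part in the Nid2 values was not tested. The annotated exons of Nid2 share 437 bases with Rtraf on the opposite strand, and the libraries do not mark strand, so reads there could not be assigned.

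Replicate number marked several of the other genes as well. As deviations from the group mean on the log2 scale, Lamc1 in replicate 1 lay between -0.149 and -0.137 in all 3 groups, Lamb2 between -0.154 and -0.118 and Lama4 between -0.165 and -0.114. Pxdn in replicate 1 went the other way, from 0.032 to 0.104. Replicate 1 was the lowest sample in each of the 3 groups for 7 of the 10 genes, namely Lama2, Lama4, Lamb2, Lamc1, Nid1, Nid2 and Hspg2. The share of all tested genes with this order was not counted, so the 7 cannot be read as particular to this part.

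**Figure D4:**
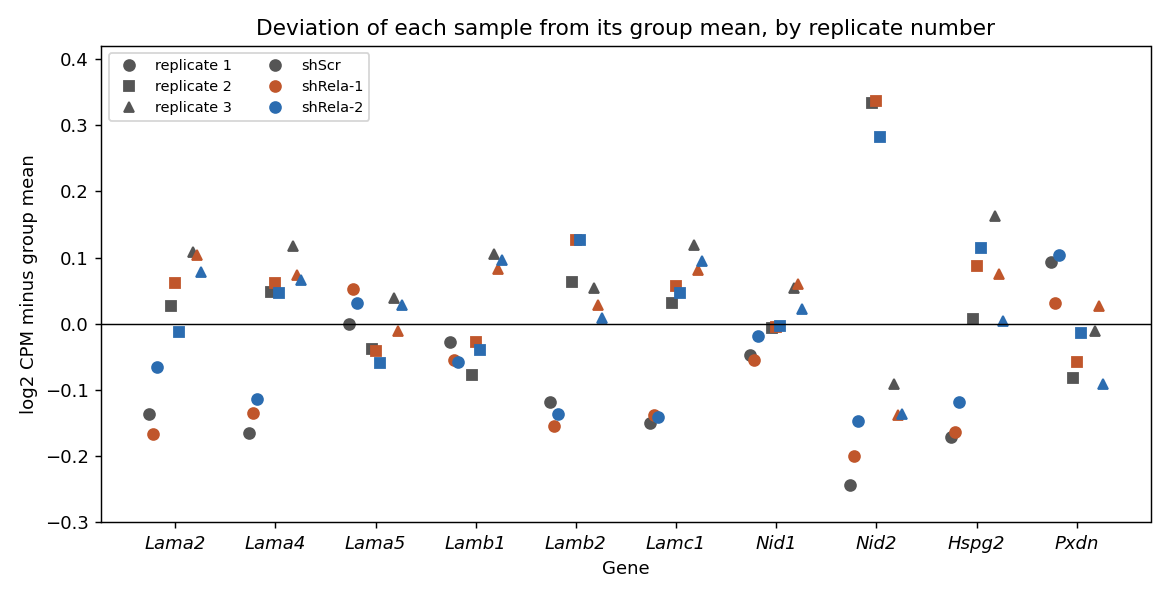
Deviation of each sample from its group mean in log2 CPM (vertical axis) for the 10 genes, with symbols for the replicate number and colours for the group. Nid2 in replicate 2 lies 0.283 to 0.337 above its group means, and most genes have replicate 1 below 0.

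Hspg2 encodes perlecan and lies on chromosome 4 at 137468769 to 137570630 (plus strand). It stood at 1621, 1835 and 2043 CPM in shScr, 1742, 2072 and 2055 CPM with shRela-1 and 1823, 2141 and 1984 CPM with shRela-2. The 3 groups overlapped. The changes were 0.09 ± 0.094 and 0.11 ± 0.094 (edgeR, adjusted p = 0.529 and 0.411), with 95% intervals from -0.11 to 0.30 and from -0.09 to 0.32. With the block the second passed (0.0194, against 0.171 to 0.833 over the 14 others). Other genes build and modify the heparan sulfate chains carried by perlecan and other core proteins. Of 18 such genes, all tested, 1 rose and 5 fell with shRela-1, and 3 rose and 5 fell with shRela-2 (with the block 5 rose and 5 fell with shRela-1). Among all tested genes 12.3% rose and 12.4% fell with shRela-1 (20.4% and 18.9% with the block), and 15.4% went each way with shRela-2. Ndst1, the N-sulfation enzyme that opens chain modification, stood at 149 ± 4.46 CPM in shScr, 156 ± 5.16 in the shRela-1 samples and 55.3 ± 4.17 in those of shRela-2, and fell with shRela-2 (-1.43 ± 0.055, edgeR, adjusted p = 1.28e-07). Hs2st1, a sulfotransferase, fell with both hairpins (-0.36 ± 0.053 and -0.47 ± 0.053, edgeR, adjusted p = 6.49e-04 and 9.78e-05). Hs6st2, another, fell with shRela-1 (-0.60 ± 0.068) and rose with shRela-2 (0.37 ± 0.067, edgeR, adjusted p = 1.20e-04 and 0.00189).

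Pxdn, which encodes peroxidasin, was the member with the largest change, and the hairpins moved it in opposite directions. It stood at 429, 380.2 and 399.8 CPM in shScr, 148, 139 and 147 CPM with shRela-1 and 624, 575 and 545 CPM with shRela-2. The 3 groups did not overlap. It fell by 1.48 ± 0.061 with shRela-1 and rose by 0.53 ± 0.059 with shRela-2 (edgeR, adjusted p = 1.11e-07 and 1.01e-04), and the difference between hairpins was 2.01 ± 0.062 (edgeR, adjusted p = 1.14e-08), a 4.03-fold gap. Among all 15369 genes its change ranked 70 by size with shRela-1, 1761 with shRela-2 and 39 between hairpins. Over all alternatives, the block included, the value stayed between -1.52 and -1.43 with shRela-1 and between 0.47 and 0.58 with shRela-2. Rela itself differed between the hairpins by 0.03 ± 0.051, with a 95% interval from -0.09 to 0.14. Pxdn spans 29937608 to 30017658 of chromosome 12 (mm10, plus strand), and no exon of another annotated gene overlaps its own.

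The promoters of Pxdn and Lama2 are shown because Pxdn fell and Lama2 rose with shRela-1 and their start regions differ in make-up. RefSeq promoters (GRCm38.p6, from 250 bases before to 50 after a start site) were at hand for 7 of the 10 genes. Capitals mark GGGCGG, the core of the GC box bound by SP factors, on either strand.
Pxdn, chr12:29937786-29938085, plus strand: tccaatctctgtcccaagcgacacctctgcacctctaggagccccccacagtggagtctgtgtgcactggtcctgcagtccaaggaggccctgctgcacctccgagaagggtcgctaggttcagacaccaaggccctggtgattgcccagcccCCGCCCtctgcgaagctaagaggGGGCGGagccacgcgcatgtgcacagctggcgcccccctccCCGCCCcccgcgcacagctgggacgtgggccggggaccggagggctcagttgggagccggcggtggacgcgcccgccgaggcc
Lama2, chr10:27616893-27617192, minus strand: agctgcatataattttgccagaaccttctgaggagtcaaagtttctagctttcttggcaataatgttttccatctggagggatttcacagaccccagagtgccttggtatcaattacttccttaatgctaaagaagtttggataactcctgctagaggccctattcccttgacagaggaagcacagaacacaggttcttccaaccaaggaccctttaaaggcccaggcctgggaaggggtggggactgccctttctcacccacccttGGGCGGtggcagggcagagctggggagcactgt
The Pxdn window is 70.0% G or C with 21 CpG and 3 GGGCGG, and the Lama2 window is 50.3% G or C with 1 CpG and 1 GGGCGG. Over all 32851 promoters of the table the median was 52.7% and 7 CpG, and 35.7% held GGGCGG. Both RefSeq starts lie inside the gene spans given above, so other annotated starts are not covered by these windows. The NF-kB consensus, searched on both strands, was found in none of the 7 windows (0 of 7) and in 6.925% of all promoters. Hspg2 held 5 GGGCGG, Lama5 4, Lamb1 2, Nid1 1 and Lamb2 none, as a description of these windows. G or C made up 70.3% of the Hspg2 window, 72.7% of that of Lama5, 63.7% of Lamb1, 64.7% of Nid1 and 44.0% of Lamb2. None of these genes was called with shRela-1 without the block. Lamc1, which also rose with shRela-1, had no window, and a link between make-up and response was not tested. CCAAT occurred 1 time each in Pxdn, Lamb1 and Nid1 (37.4% of all promoters held it) and TATAAA in none (13.6%).

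An earlier analysis of these same counts had picked a 7-base sequence of 3' UTRs for each hairpin, AGGTGTA for shRela-1 and GAAGCTA for shRela-2, so the medians below are a description. Tested genes with AGGTGTA in a 3' UTR had a median log2 fold change of -0.15 with shRela-1, against 0.01 in genes without it. Those with GAAGCTA had a median of -0.16 with shRela-2, against 0.01. The sense strand of the annotated 3' UTRs of the 10 genes held neither (0 of 10, in UTRs of 113 to 2554 bases), where 8.44% and 9.47% of 13868 genes did. Among the other genes named here, AGGTGTA occurs in C1d, Slc4a7, Col4a1 and Npnt, and GAAGCTA in Ndst1 and Hs6st2. With shRela-1, C1d (-1.64), Slc4a7 (-1.33) and Npnt (-0.91) were lower, while Col4a1 was at 0.005. With shRela-2, Ndst1 fell (-1.43) and Hs6st2 rose (0.37). These genes were named by their p-values or profiles in the same counts, so the occurrences are only a description and were not tested.

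The genes with profiles closest to Pxdn and Lamc1 were found by the root mean square difference of log2 CPM, centred on the shScr mean, over the 9 samples. For Pxdn they were C1d (0.136), Slc4a7, a bicarbonate transporter (0.144), and Plekha3 (0.186). C1d had a mean of 25.0 CPM in shScr, 8.0 CPM with shRela-1 and 34.4 CPM with shRela-2. For Lamc1 they were Lurap1l (0.053), Psd3 (0.063) and Lama2 (0.069), which is itself a laminin chain.

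Collagens and receptors of the basement membrane were read beside these genes. Of 8 collagens, 1 was called with shRela-1 (Col4a2, 0.22 ± 0.060, edgeR, adjusted p = 0.0222) and 1 with shRela-2 (Col4a5, 0.38 ± 0.098, edgeR, adjusted p = 0.0132), and both rose. Col4a2 and Col4a1 encode the most widespread chains of type IV collagen, the substrate of peroxidasin, and Col4a5 a chain of kidney and other specialised membranes. The Col4a2 call was lost when replicate 1 (0.0701) or 2 (0.0724) of shScr was left out, likewise replicate 2 (0.0518) or 3 (0.0757) of shRela-1, and the Col4a5 call was lost without shRela-2 replicate 2 (0.0547). With shRela-1 2 were called without shRela-1 replicate 1, and with shRela-2 2 without shScr replicate 1 or 3. With the block 4 changed with shRela-1 (3 rose and 1 fell), 4 with shRela-2 (2 rose and 2 fell) and 5 between hairpins (2 higher and 3 lower with shRela-2). The background shares were 24.7% and 30.9% against shScr without the block and 39.3%, 44.4% and 51.9% with it. Col4a1 was at 0.005 ± 0.063 with shRela-1, where Pxdn fell, and at 0.16 ± 0.063 with shRela-2 (edgeR, adjusted p = 0.0839, or 2.65e-04 with the block and 0.0207 to 0.254 over the others). That value passed by DESeq2 (adjusted p = 0.0435) and without shScr replicate 3 (0.0207).

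Among 16 receptors and partners, 4 rose and 1 fell with each hairpin (12 and 11 called with the block, and 3 with shRela-1 without shScr replicate 2 or 3). The shares of all tested genes were 24.7% and 30.9%, or 39.3% and 44.4% with the block, and the receptors' median log2 fold changes were 0.13 and 0.11. Dag1, the laminin receptor dystroglycan, went from 279 ± 4.77 CPM to 373 ± 15.8 CPM with shRela-1 (0.42 ± 0.042, edgeR, adjusted p = 5.87e-05) and 275 ± 8.46 CPM with shRela-2. Cd151, a tetraspanin that pairs with laminin-binding integrins, rose with both (0.47 ± 0.082 and 0.79 ± 0.083, edgeR, adjusted p = 0.00217 and 6.29e-05). Itga6, the alpha subunit of laminin-binding integrins, rose with shRela-2 (0.60 ± 0.080, edgeR, adjusted p = 3.19e-04) and was at 0.01 ± 0.080 with shRela-1. The lists hold genes that moved in both directions and no score over them was tested.

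**Figure D5:**
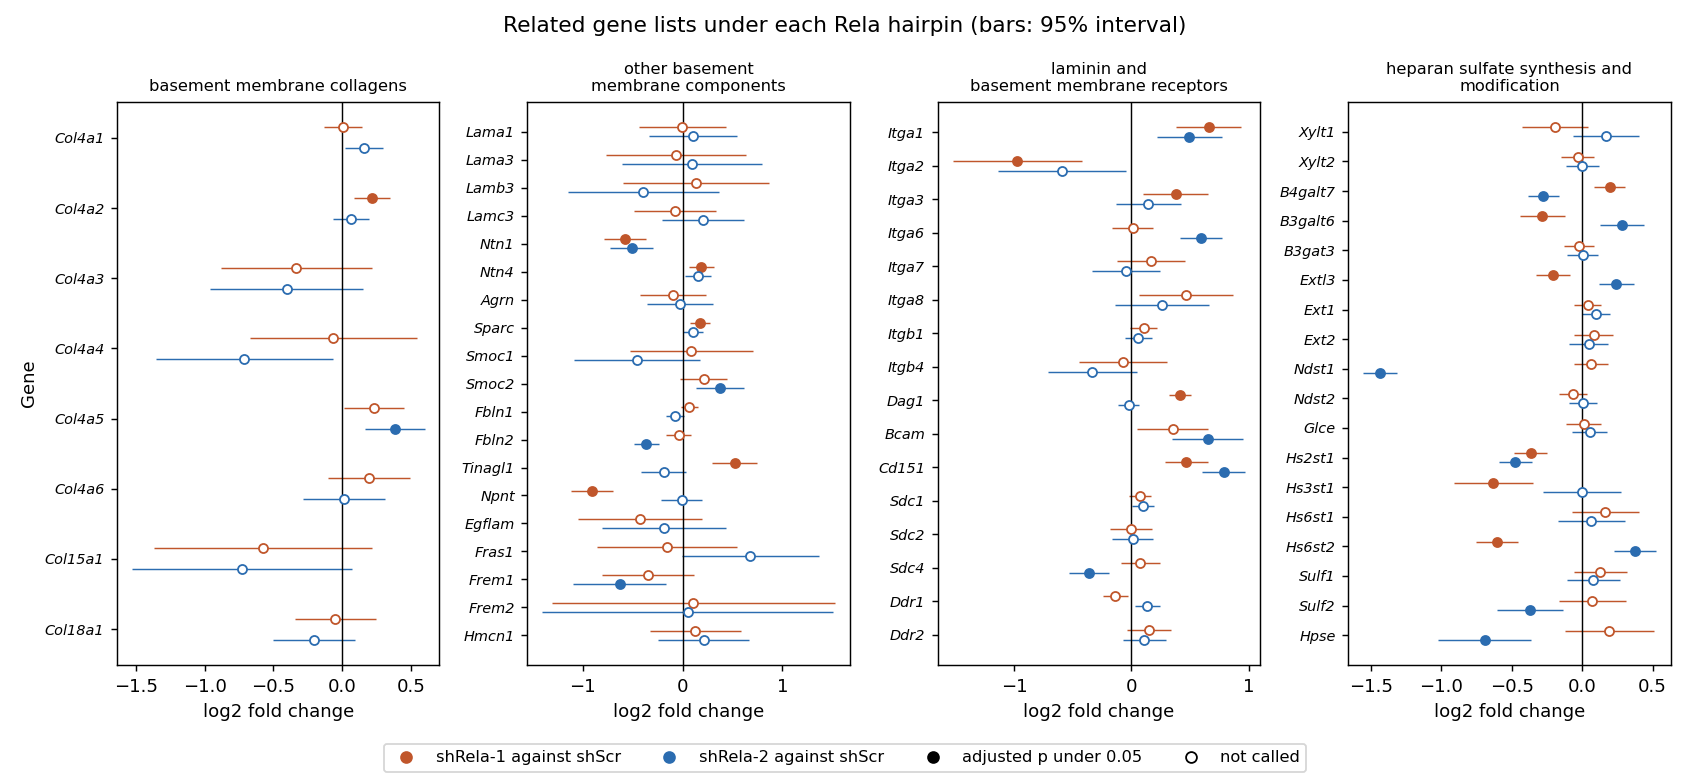
Log2 fold change against shScr (horizontal axes, bars 95% intervals) of the genes of 4 related lists, for shRela-1 and shRela-2; filled points have an adjusted p under 0.05. Ndst1 lies at -1.43 with shRela-2 and 0.06 with shRela-1, and Hs6st2 at -0.60 with shRela-1 and 0.37 with shRela-2.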

How the data were processed

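The members and lists were chosen with earlier results of these data known. RNA of 9 samples had been made into TruSeq RNA v2 libraries, which do not mark strand, per the labels' protocols. The deposited table holds whole-number counts by gene symbol, not normalized by the authors, and all its columns were used. Per the submitters' processing notes the build was mm10 and the tools included featureCounts 1.4.6 and Subread, beside Bowtie2 2.2.6 and TopHat2 2.0.14, with roles and settings not given in the sources used here. The control titles carry a dataset tag that the others lack, and any batch that goes with it and the group cannot be told apart. Nothing says that replicates came from separate cultures, so p-values measure only how these samples vary, and that spread may be technical.

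Of 24062 genes, 15369 passed edgeR's filterByExpr and were fitted with edgeR 4.0.16 in R 4.3.3: TMM scaling (factors 0.975 to 1.02), 1 mean per group over all 9 samples, glmQLFit and glmQLFTest, two-sided, with Benjamini-Hochberg adjustment over all tested genes. A gene with an adjusted p under 0.05 is said to have risen or fallen. CPM came from TMM-scaled totals, and CPM per kb from the joined exons of coding transcripts in GENCODE M21. Deviations from group means correlated at 0.189 to 0.415 in all 9 pairs of same-numbered samples and at -0.306 to 0.0459 in the 18 other pairs between groups. The labels state no pairing of the replicate numbers. The unblocked fit, which gives the calls unless the block is named, ignores these shared deviations. Results with the block, which takes them into account, are therefore given beside it. Genes named are the 10 members, Rela, the 3 of each of 4 lists with the smallest p against shScr, and the 3 closest profiles to each of the 2 called members with the largest change (mean log2 CPM of at least 1). The result of 1 gene that this rule names is not reported here, and the plot of the lists leaves it out. Gene Hmcn2 was not matched to the table, and Adgre1 was read under its synonym Emr1. Alternatives were DESeq2 1.42.0 and its size factors in edgeR, limma 3.58.1 voom, no filter, a replicate block, the 2 groups alone, and each sample left out. The unblocked fit was also run on simulated counts, drawn independently for each sample with no effect of replicate number. That run therefore does not cover the shared deviations of same-numbered samples.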

Additional observations from a re-analysis of the deposited data

Results flagged for a closer look

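The response to the hairpins differed for 6 of the 10 genes by the test of shRela-2 against shRela-1 (edgeR, adjusted p under 0.05), where 39.9% of all 15369 tested genes differed (51.9% with the replicate block). Pxdn was 2.01 higher on the log2 scale with shRela-2 and Nid1 0.16 higher. Lamc1 differed by -0.63, Lama2 by -0.49, Lama4 by -0.46 and Lama5 by -0.14. For Pxdn the 3 samples of each hairpin lay on opposite sides of the 3 controls.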

How the results depend on the processing

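Over the 10 genes, 3 comparisons and all alternatives, 417 refits kept direction and call, 19 gained a call, 8 lost one and 6 turned the sign of an uncalled value. The replicate block weakened no call of a member. It gave 7 and 9 members called against shScr, and 6034 genes in all with shRela-1. Of all tested genes it called 39.3% with shRela-1, 44.4% with shRela-2 and 51.9% between hairpins. It gave 4, 4 and 5 collagens called with shRela-1, with shRela-2 and between hairpins, 12, 11 and 10 receptors, 11 other components with shRela-2 and 8 between hairpins, and 10 heparan sulfate genes with shRela-1. DESeq2 called 2, 2 and 1 collagens in the 3 comparisons, and the 2 hairpin groups alone gave 1 between hairpins, where edgeR had called 0 (3 at an unadjusted p under 0.05, and 0 by limma voom). Leaving out 1 sample at a time gave 2 to 6 members with shRela-2 and 2 to 4 with shRela-1, 0 to 2 collagens in each comparison, 3 to 5 receptors with shRela-1 and 3 to 5 other components with shRela-2. Over all genes these refits called 2745 to 3824 with shRela-1. The sign of small uncalled values turned as samples were left out: with shRela-1, Lamb1 ran from -0.0928 to 0.00159, Col4a1 from -0.0369 to 0.0711, Fbln2 from -0.0908 to 0.00576 and Itga6 from -0.0443 to 0.0785. With shRela-2 Npnt ran from -0.0792 to 0.082. Between hairpins Lamb2 ran from -0.0194 to 0.123, Nid2 from -0.267 to 0.0759, Hspg2 from -0.0612 to 0.0764 and Rela from -0.0201 to 0.0525. The cause of these changes was not tested. Depth left no gene of the 10 under 3049 counts in any library.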
